A study of Mus musculus with 6 samples.

Results

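The transcription factors that keep naive CD4+ T cells quiescent and committed to the T lineage were followed from Naive cells into Th17 and Th1 cells. The set held the 8 genes *Tcf7*, *Lef1*, *Satb1*, *Bach2*, *Foxo1*, *Foxp1*, *Ets1* and *Bcl11b*, chosen by symbol among the 24223 genes of the count tables, and all 8 were among the 13607 genes with enough counts to be tested. The RNA-Seq data comprised 6 libraries, with 2 replicates each of Naive, Th17 and Th1 cells from C57BL/6 mice of 1 to 2 months of age. Naive cells were CD4+CD44- cells isolated with a commercial kit from pooled lymph nodes and spleens, so a library was not tied to a single animal. For both kinds of helper cell, Naive cells were stimulated through CD3 and CD28 with IL-4 blocked, and they were collected on the fifth day of culture. For Th1, IL-12 and IL-2 were added, whereas for Th17, IFN-γ was blocked as well and TGF-β, IL-6, IL-1β and IL-23 were added. The stimulus was given by antibodies or by beads, and the paper does not say which culture had which. Th17 and Th1 therefore shared stimulation through CD3 and CD28, time in culture and the block of IL-4. No library of activated but unpolarized cells was analysed here.

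Naive T cells leave the thymus with a program of transcription factors that sustains survival and recirculation while effector genes stay silent. *Tcf7* (encoding TCF-1) and *Lef1* encode HMG-box proteins that bind the same DNA site, recruit β-catenin or Groucho/TLE corepressors, and act from thymic commitment to memory. *Foxo1* encodes a forkhead factor that activates homing and survival genes such as *Ccr7*, *Klf2* and *Il7r* and that leaves the nucleus when phosphorylated by AKT, and *Foxp1* encodes a forkhead repressor that maintains quiescence. *Bach2* encodes a repressor that pairs with small Maf proteins at sites also used by AP-1 and restrains effector differentiation. *Satb1* encodes a genome organizer abundant in the thymus, *Ets1* encodes the founding ETS factor, required for normal T cell survival, and *Bcl11b* encodes a zinc finger factor needed for T lineage commitment. Several of these factors are reported to act on each other's genes, so the sites they bind were looked for in the promoters of the set.

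The RefSeq table of GRCm38.p6 promoters held 17 windows of 250 bases upstream of a transcription start for 7 of the 8 genes, with no entry for *Ets1*. Each window was searched on both strands for CTTTGA (the core of the TCF/LEF site), CGGAAG (an Ets site), TGTTTAC (a forkhead site) and TGAGTCA (a site shared by Bach factors and AP-1), and no match overlapped another. The TCF/LEF letters were in 4 of 17 windows, from *Lef1*, *Bach2*, *Foxp1* and *Bcl11b*, and in 13.83% of all 32851 windows of the same length. The Ets letters were in 2 windows, from *Tcf7* and *Bach2*, against 13.59% of all windows, and the forkhead and Bach letters were in 0, against 3.166% and 4.463%. A match describes letters, not a bound site. The windows printed here, from *Bach2* and *Lef1*, are those that held a match and no annotated exon, and capitals mark the TCF/LEF and Ets letters, all read as the reverse complement (TCAAAG and CTTCCG). The *Bach2* window lay at chr4:32417185-32417434 on the plus strand and served a start 178631 bases inside the gene, with TCAAAG beginning 93 bases and CTTCCG 12 bases before that start. The *Lef1* window lay at chr3:131156044-131156293 on the plus strand and served a start 45823 bases inside the gene, with TCAAAG beginning 180 and 120 bases before it.
Bach2: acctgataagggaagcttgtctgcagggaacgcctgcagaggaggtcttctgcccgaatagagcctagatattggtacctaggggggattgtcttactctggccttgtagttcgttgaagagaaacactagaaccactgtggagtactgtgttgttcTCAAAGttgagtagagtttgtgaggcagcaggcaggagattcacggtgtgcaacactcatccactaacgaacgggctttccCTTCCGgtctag
Lef1: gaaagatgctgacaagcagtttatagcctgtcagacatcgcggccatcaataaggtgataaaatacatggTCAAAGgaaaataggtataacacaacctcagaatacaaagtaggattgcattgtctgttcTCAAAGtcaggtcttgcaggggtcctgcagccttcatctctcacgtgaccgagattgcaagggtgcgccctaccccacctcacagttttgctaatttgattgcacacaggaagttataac

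Depth ranged from 17742158 to 69080017 counts, replicate 1 was the deeper library in every cell type, and 3 counts corresponded to between 0.0440 and 0.190 CPM (counts scaled to the effective size of each library by the TMM method). The fewest counts of any member were 754, for *Bach2* in a Th17 library, so counting error was small beside the spread between replicates. The labelled cell types carried their markers: all 8 T cell markers (such as *Cd3e*, *Cd4* and *Thy1*) were above 10 CPM in every library, 4 of 5 Th17 markers were called higher in Th17 than in Naive, and 5 of 5 Th1 markers higher in Th1. RNA of other cells was also present. A list of 11 neutrophil and myeloid genes, all above 1 CPM in Th17, summed to 3160 and 3622 CPM in Th17. The list reached 348 and 208 CPM for the Naive libraries and 39.9 and 60.2 CPM for the Th1 libraries. Its genes did not all move alike, since edgeR called 8 higher and 1 lower in Th17 than in Naive. The lower gene, *Mpo*, made up most of both Naive sums (251 and 159 CPM). Its Th17 libraries held 68.1 and 58.7 CPM, a log2 fold change of -1.69 (edgeR adjusted p = 0.00473). *Elane* and *Csf1r* were not called. The T cell markers summed to 3541 and 4199 CPM in Th17, inside the Naive range of 3345 to 4395 CPM. Erythroid genes summed to 476 and 86.8 CPM in Naive replicates 1 and 2 and to at most 1.58 CPM elsewhere, nearly all of it *Car1*, with the 4 globin genes of the list at 0 counts in every library. B cell genes stayed at or below 23.0 CPM, NK cell genes at or below 19.3 CPM and CD8 T cell genes at or below 11.3 CPM. In bulk RNA, fewer cells of a type and less RNA per cell cannot be told apart, and the part of these cells in the results below was not tested.

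In Th17, 6 of the 8 factors had both libraries below both Naive libraries, as did 33.1% of all genes tested, and in Th1 the libraries of 6 members overlapped those of Naive. *Foxp1* was 2.58-fold lower, *Bcl11b* 2.29-fold lower and *Foxo1* 2.04-fold lower in Th17 than in Naive, but no member was called. Without Naive replicate 2 the log2 fold change of *Foxo1* in Th17 moved from -1.03 to -0.40 and that of *Bcl11b* from -1.19 to -0.62. The members with both Th1 libraries outside the Naive range were *Satb1*, 2.73-fold higher, and *Tcf7*, 1.93-fold lower, and neither was called. Between the helper cells, *Foxp1* was called higher in Th1 than in Th17, by 3.15-fold, and the only member higher in Th17 was *Tcf7*, by 1.69-fold without a call. Called means an adjusted p under 0.01 together with a log2 fold change beyond 1 in either direction, in edgeR's quasi-likelihood F-test with Benjamini-Hochberg adjustment over all genes tested.

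**Figure D1:**
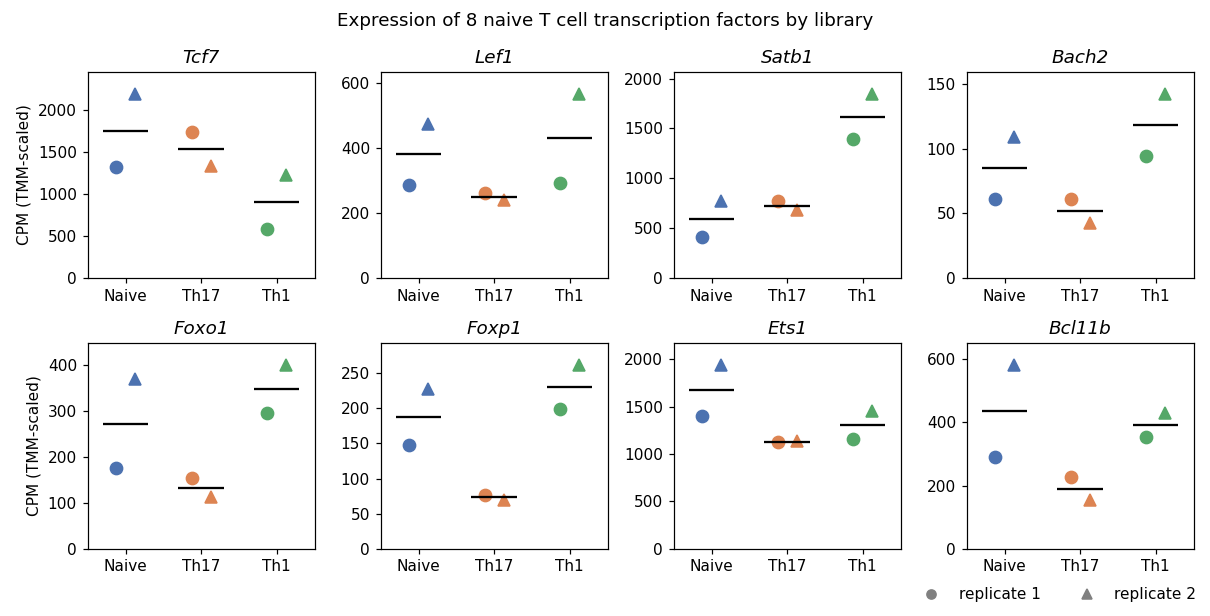
CPM of the 8 transcription factors (vertical axis, TMM-scaled, from 0) in each of the 6 libraries, with circles for replicate 1, triangles for replicate 2 and a line at the mean of each cell type. For *Foxp1* the Th17 points at 76.4 and 69.6 CPM sit below all other libraries, for *Satb1* the Th1 points at 1389 and 1845 CPM sit above all others, and for all 8 genes the Naive triangle is above the Naive circle.

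For Th17 against Naive, 0 of 8 members were called in either direction, while 4.01% of all genes tested were called higher and 1.43% called lower in Th17. At an unadjusted p under 0.05 there were 3 members, where 33.3% of all genes were, and DESeq2 called 1 (*Foxp1*, lower), where it called 12.3% of all genes in either direction. Both Th17 libraries lay below both Naive libraries for 6 members, namely *Lef1*, *Bach2*, *Foxo1*, *Foxp1*, *Ets1* and *Bcl11b*, where 33.1% of all genes tested did so, and above them for 0 members, against 32.4% of all genes. With RLE factors or library size alone *Bach2* overlapped, and the other 5 lay below. The share of all genes below was not counted for these scalings. The median log2 fold change was -0.66 over the members and -0.02 over all genes tested.

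For Th1 against Naive, 0 of 8 members were called, against 4.64% of all genes called higher and 2.81% called lower in Th1. An unadjusted p under 0.05 was reached by 2 members and by 29.9% of all genes, and DESeq2 called 1 member (*Satb1*, higher) and 13.3% of all genes. Both Th1 libraries were above both Naive libraries only for *Satb1*, 1 of 8 where 27.6% of all genes were, and below them only for *Tcf7*, 1 of 8 where 28.4% of all genes were. Scaled to the T cell markers, *Ets1* and *Bcl11b* lay below as well, which made 3. That scaling moved the median log2 fold change of all genes to -0.27, and the share of all genes below was not counted for it. The median log2 fold change was 0.23 over the members and -0.02 over all genes.

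For Th1 against Th17, 1 of 8 members was called higher in Th1, where 2.7% of all genes were, and 0 were called lower, where 2.83% were. An unadjusted p under 0.05 was reached by 5 members and by 33.8% of all genes. DESeq2 called 2 members, *Foxo1* and *Foxp1*, and 13.2% of all genes. The libraries of the 2 cell types did not overlap for any member: 7 had both Th1 libraries above both Th17 libraries, against 31.5% of all genes, and *Tcf7* alone had both below, against 35.1%. The median log2 fold change of the members was 1.10, and that of all genes was -0.03. With library size alone as the scaling, *Ets1* and *Lef1* overlapped and 5 members remained above. The median of all genes was then -0.24, and the share of all genes above was not counted for it. Both comparisons with Naive used the same Naive libraries, so their values are not independent of each other.

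**Figure D2:**
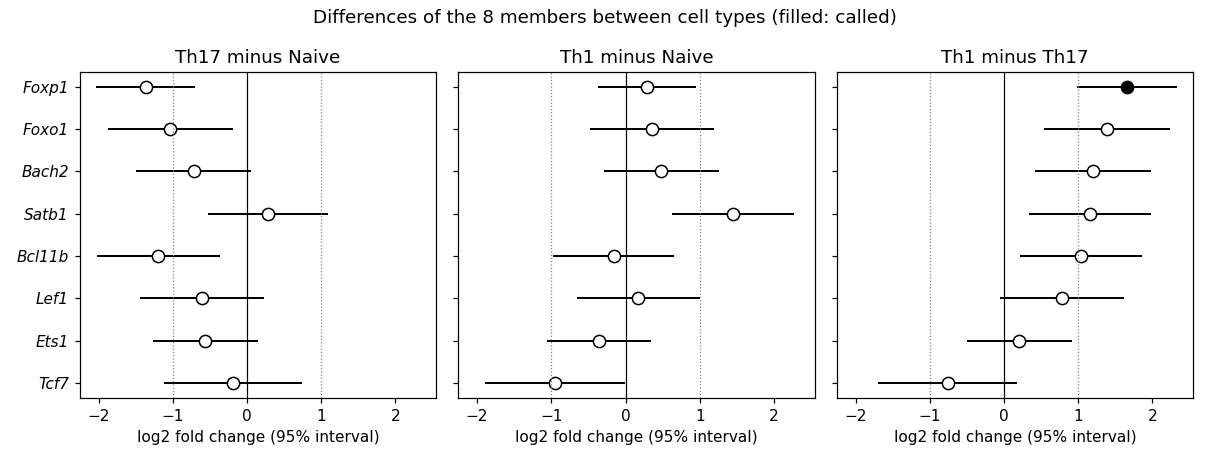
Log2 fold change of each member (horizontal axis) with its 95% interval from the edgeR fit, for Th17 minus Naive, Th1 minus Naive and Th1 minus Th17, with dotted lines at the fold change needed for a call and a filled point for a call. Only *Foxp1* in Th1 against Th17 is filled, at 1.66, and *Tcf7* lies left of 0 in all 3 comparisons.

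*Tcf7*, on chromosome 11 (52252371-52283014, minus strand), was the most abundant factor of the set per length and the only member with lower levels in Th1 than in Th17. It stood at 1322 and 2197 CPM in Naive, 1748 and 1336 CPM in Th17, and 588 and 1234 CPM in Th1. Both Th17 libraries lay inside the Naive range and both Th1 libraries below it, although the replicates of Th1 were themselves 2.10-fold apart. Mean levels (± SD, n = 2) were 1760 ± 619 CPM for Naive, 1542 ± 292 CPM for Th17 and 911 ± 457 CPM for Th1. The log2 fold change was -0.95 ± 0.42 (SE, 95% interval -1.89 to -0.01) for Th1 against Naive, with an edgeR adjusted p of 0.163. This value rests on single libraries, since it was -0.47 without Th1 replicate 1, -1.58 without Th1 replicate 2 and -0.54 without Naive replicate 2. It was -0.76 ± 0.42 for Th1 against Th17 (edgeR adjusted p = 0.231) and -0.19 ± 0.42 for Th17 against Naive (edgeR adjusted p = 0.777), where the interval from -1.12 to 0.74 leaves room for a change in either direction.

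*Lef1*, the other TCF/LEF factor of the set, on chromosome 3 (131110471-131224356, plus strand), did not follow *Tcf7*. Its levels were 287 and 475 CPM in Naive, 261 and 240 CPM in Th17, and 292 and 567 CPM in Th1. The Th17 libraries were the lowest of the 6, and the Th1 and Naive libraries overlapped. *Lef1* gave a log2 fold change of -0.61 ± 0.37 for Th17 against Naive (edgeR adjusted p = 0.281) and of 0.78 ± 0.37 for Th1 against Th17 (edgeR adjusted p = 0.174), both short of a call. The value for Th1 against Naive was 0.17 ± 0.37 (edgeR adjusted p = 0.808) and took the opposite sign under library size alone (-0.10) and under scaling to the T cell markers (-0.068).

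The balance within the TCF/LEF pair differed between cell types more than between replicates. There were 4.61 and 4.63 *Tcf7* counts per *Lef1* count in the Naive libraries, 6.70 and 5.57 in the Th17 libraries, and 2.01 and 2.18 in the Th1 libraries. Such ratios do not depend on library scaling, and the 3 cell types did not overlap. The pair differs in exon length, however, with 2625 bases for *Tcf7* and 8788 for *Lef1*. For Th17 against Naive, all tested genes of 2000 to 4000 exon bases had a median log2 fold change of 0.11. Those of 8000 or more had -0.34, and the part of length in the ratio was not tested. Per length, *Tcf7* made up 93.9% of the pair in both Naive libraries, 95.7% and 94.9% in Th17, and 87.1% and 87.9% in Th1. The paralogues *Tcf7l1* and *Tcf7l2* contributed little, since *Tcf7* and *Lef1* held between 99.7% and 99.9% of the per-length signal of all 4 TCF/LEF genes. This ratio, and that of *Satb1* to *Tcf7* below, were chosen after the values had been seen and carry no test. The *Satb1* ratio also sets *Tcf7* against a gene with longer exons.

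*Satb1*, on chromosome 17 (51736187-51833290, minus strand), was the member with the highest fold change in Th1 against Naive. It stood at 410 and 775 CPM in Naive, 773 and 676 CPM in Th17, and 1389 and 1845 CPM in Th1. Every Th1 library was above every other library, and the Th17 libraries lay within the Naive range. Against Naive the log2 fold change in Th1 was 1.45 ± 0.37 (95% interval 0.62 to 2.27) with an edgeR adjusted p of 0.0247, higher than the value of 89.7% of all genes tested. DESeq2 gave 1.46 and called it, with an adjusted p of 0.00128. Left-out libraries moved the edgeR value from 1.98 (adjusted p = 0.00946) without Naive replicate 2 to 1.06 (adjusted p = 0.119) without Naive replicate 1, and it was 1.24 (adjusted p = 0.109) without Th1 replicate 2. Against Th17 the log2 fold change was 1.16 ± 0.37 (edgeR adjusted p = 0.0567). Between Th17 and Naive it was 0.29 ± 0.36 (edgeR adjusted p = 0.600), and -0.10 without Naive replicate 1.

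The ratio of *Satb1* to *Tcf7* counts was higher in both Th1 libraries than in the other 4. The Naive libraries held 0.310 and 0.353 *Satb1* counts per *Tcf7* count and the Th17 libraries 0.442 and 0.506, whereas the Th1 libraries held 2.36 and 1.5. *Tcf7* made up 32.3% and 32.9% of the members' counts in the Naive libraries, 39.5% and 35.5% in the Th17 libraries, and 13.4% and 19.5% in the Th1 libraries. The summed level of the set did not separate the cell types, at 4098 and 6679 CPM in Naive, 4430 and 3766 CPM in Th17, and 4372 and 6333 CPM in Th1.

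**Figure D3:**
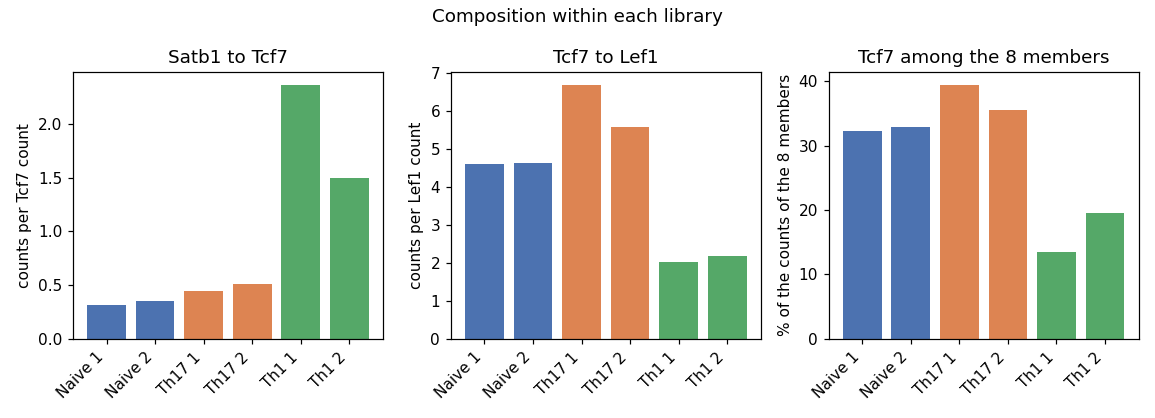
Composition of the set in each of the 6 libraries, as *Satb1* counts per *Tcf7* count (left), *Tcf7* counts per *Lef1* count (middle) and the percent of the counts of the 8 members that *Tcf7* held (right), with axes from 0. The Th1 bars stand at 2.36 and 1.5 on the left and at 2.01 and 2.18 in the middle, apart from those of the other 4 libraries in all 3 panels.

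*Foxp1*, on chromosome 6 (98925338-99522721, minus strand), separated the helper cells most clearly. It stood at 148 and 228 CPM in Naive, 76.4 and 69.6 CPM in Th17, and 199 and 262 CPM in Th1. The Th17 libraries were the lowest, 1.10-fold apart, and the Th1 and Naive libraries overlapped. Between Th1 and Th17 the log2 fold change was 1.66 ± 0.30 (95% interval 0.98 to 2.33) with an edgeR adjusted p of 0.00668, higher than the value of 95.2% of all genes tested. The call was lost without any 1 of the 4 Th1 and Th17 libraries, with log2 fold changes between 1.46 and 1.84 and adjusted p between 0.0129 and 0.0622. Against Naive the log2 fold change in Th17 was -1.37 ± 0.30 (95% interval -2.04 to -0.69) with an edgeR adjusted p of 0.0158, and DESeq2 called it (-1.36, adjusted p = 0.000724). For Th1 against Naive it was 0.29 ± 0.30 (edgeR adjusted p = 0.565). *Foxp1* shares exon bases with the annotated genes Gm20696 and Gm49348 on the same strand, neither of which had enough counts to be tested.

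*Foxo1*, on chromosome 3 (52268336-52353221, plus strand), showed the same order of cell types with wider replicates. It stood at 175 and 371 CPM in Naive, 154 and 112 CPM in Th17, and 296 and 401 CPM in Th1. Both Th17 libraries were below the other 4, and the Naive replicates, 2.11-fold apart, spanned part of the Th1 range. The log2 fold change was 1.38 ± 0.38 for Th1 against Th17 (95% interval 0.53 to 2.24, edgeR adjusted p = 0.0368) and -1.03 ± 0.38 for Th17 against Naive (95% interval -1.88 to -0.19, edgeR adjusted p = 0.0897). DESeq2 called the first of these, with 1.39 and an adjusted p of 0.00732. Th1 and Naive differed by 0.35 ± 0.38 (edgeR adjusted p = 0.587). The ratio of *Foxo1* to *Foxp1* counts ranged from 1.18 to 2.02 over the 6 libraries, with 1.49 and 1.53 in Th1 inside the Naive range of 1.18 to 1.62.

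*Bach2*, on chromosome 4 (32238804-32586108, plus strand), had the lowest mean level of the set per length in every cell type. It stood at 61.4 and 109 CPM in Naive, 60.7 and 42.7 CPM in Th17, and 94.7 and 143 CPM in Th1. The Th17 libraries were below all others, but the deeper Th17 library was only just below Naive replicate 1. For Th1 against Th17 the log2 fold change was 1.20 ± 0.35 (95% interval 0.41 to 1.98, edgeR adjusted p = 0.0458). It was -0.72 ± 0.35 for Th17 against Naive (edgeR adjusted p = 0.181) and 0.48 ± 0.35 for Th1 against Naive (edgeR adjusted p = 0.406). The antisense gene *Bach2os* overlaps an exon of *Bach2* and was at or below 0.792 CPM in every library.

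*Ets1*, on chromosome 9 (32636221-32757820, plus strand), varied least among the members. It stood at 1403 and 1942 CPM in Naive, 1131 and 1134 CPM in Th17, and 1160 and 1453 CPM in Th1. Naive replicate 2 was the highest library, and the lower Th1 library was close to both Th17 libraries. The log2 fold change was -0.56 ± 0.32 for Th17 against Naive (95% interval -1.27 to 0.14, edgeR adjusted p = 0.240) and -0.36 ± 0.32 for Th1 against Naive (95% interval -1.06 to 0.35, edgeR adjusted p = 0.510). For Th1 against Th17 it was 0.21 ± 0.32 (95% interval -0.50 to 0.91, edgeR adjusted p = 0.671), and its sign turned under library size alone (-0.015) and under scaling to the T cell markers (-0.040).

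*Bcl11b*, on chromosome 12 (107910403-108003602, minus strand), stood at 290 and 582 CPM in Naive, 226 and 155 CPM in Th17, and 353 and 429 CPM in Th1. Both Th17 libraries were the lowest, and both Th1 libraries fell inside the Naive range. The log2 fold change for Th17 against Naive was -1.19 ± 0.37 (95% interval -2.02 to -0.37), with an edgeR adjusted p of 0.0552. For Th1 against Th17 it was 1.04 ± 0.37 (95% interval 0.21 to 1.86, edgeR adjusted p = 0.0819), and for Th1 against Naive -0.16 ± 0.37 (edgeR adjusted p = 0.822).

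Measured against the T cell markers of the same library, both Th17 libraries were below the other 4 for *Foxp1*, *Foxo1*, *Bcl11b* and *Bach2*. *Lef1* and *Ets1* were below Naive in both Th17 libraries but overlapped Th1. The share of all genes with either pattern was not counted. *Foxp1* had 0.0444 and 0.0519 counts per T cell marker count for Naive, 0.0216 and 0.0166 for Th17 and 0.0481 and 0.0528 for Th1. *Bcl11b* had 0.0868 and 0.132 for Naive, 0.0637 and 0.0370 for Th17 and 0.0851 and 0.0865 for Th1. For *Foxo1* the values were 0.0524 and 0.0843 for Naive, 0.0436 and 0.0268 for Th17 and 0.0715 and 0.0809 for Th1. For *Bach2* they were 0.0184 and 0.0248 for Naive, 0.0172 and 0.0102 for Th17 and 0.0229 and 0.0288 for Th1, so the gap to Naive replicate 1 was small. Under this scaling, added after the data had been seen, *Foxp1* in Th1 against Th17 had a log2 fold change of 1.40 and was no longer called (edgeR adjusted p = 0.0212). That scaling also moved the median of all genes to -0.26. A change of scaling moves all genes by nearly the same amount. The value relative to the median, 1.66 against 1.68 with TMM scaling, was therefore bound to stay close and adds no support. The part of the myeloid RNA of Th17 in the members' values was not tested.

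The members also moved together between replicates. In Naive, all 8 were higher in replicate 2 than in replicate 1, by a median of 0.78 on the log2 scale (range 0.47 to 1.08), while the median over all genes tested was -0.02. In Th1, all 8 were again higher in replicate 2, by a median of 0.42 (range 0.28 to 1.07). In Th17, 1 of 8 was higher, and the median was -0.29. Of all genes tested, 47.9% were higher in replicate 2 in Naive, 47.7% in Th1 and 46.4% in Th17. The median Naive replicate gap of the members was larger than their median difference between Th17 and Naive. T cell markers moved in the same direction, with 7 of 8 higher in replicate 2 in Naive (median 0.49) and 6 of 8 in Th1 (0.37). In Th17, 3 of 8 were higher, with a median of -0.07. Naive replicate 1 was also the library with the most erythroid RNA, and whether that bears on the gap was not tested.

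Over all genes tested, the median differences between Th17 and the other cell types moved with exon length. Annotated exons of *Tcf7* covered 2625 bases, while those of the other 7 members covered between 8111 (*Bcl11b*) and 19027 (*Satb1*) bases. For Th17 against Naive, *Satb1*, with the longest exons, had a log2 fold change of 0.29. *Tcf7*, with the shortest, had -0.19, where all genes of 2000 to 4000 exon bases had a median of 0.11. The other 6 members had values from -1.37 to -0.56. The 2198 tested genes with 8000 or more exon bases had a median log2 fold change of 0.22 for Th1 against Th17 and -0.34 for Th17 against Naive, and the 1993 genes with under 2000 bases had -0.37 and 0.38. Among the long genes, 41.6% had both Th1 libraries above both Th17 libraries and 47.6% had both Th17 libraries below both Naive libraries. The median Naive gap of replicate 2 over replicate 1 was 0.27 in the long genes and -0.31 in the short ones. In Th17, where the members had a median gap of -0.29, that of all genes was -0.26 in the long genes and 0.17 in the short ones. In Th1, where all members were higher in replicate 2, it was -0.13 in the long genes and 0 in the short ones. The members and length did not move together in Th1. The bands of length were chosen after the data had been seen, and the part of length in the members' differences was not tested.

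**Figure D4:**
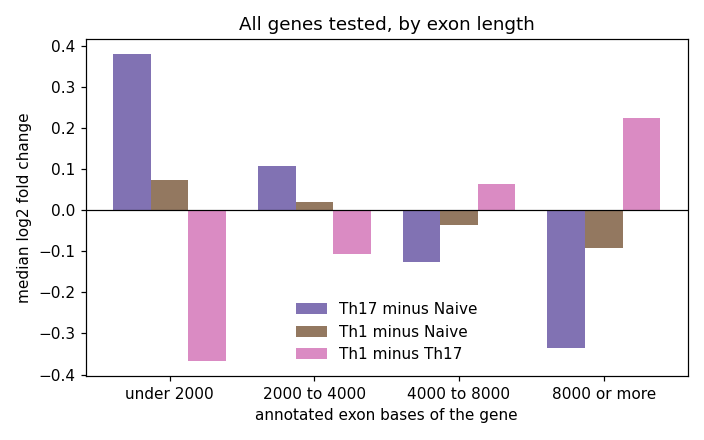
Median log2 fold change of all genes tested (vertical axis) in 4 bands of annotated exon bases (horizontal axis), with a bar for each comparison. For Th1 minus Th17 the bars climb from -0.37 in genes under 2000 bases to 0.22 in genes of 8000 bases or more, the band that holds 7 of the 8 members.

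Per kilobase of exon (RPKM, computed from the CPM and GENCODE lengths), the set spanned a wide range of abundance. In Naive the order of mean level (± SD, n = 2) was *Tcf7* (670 ± 236 RPKM), *Ets1* (197 ± 44.9), *Bcl11b* (53.8 ± 25.4), *Lef1* (43.3 ± 15.1), *Foxo1* (31.5 ± 15.9), *Satb1* (31.1 ± 13.6), *Foxp1* (13.7 ± 4.10) and *Bach2* (8.56 ± 3.37). The libraries of neighbours overlapped from *Bcl11b* through *Satb1* and again between *Foxp1* and *Bach2*, so these places are not distinct. In both helper cells *Satb1* stood next after *Ets1*, at 38.1 ± 3.59 RPKM in Th17 and 85.0 ± 16.9 RPKM in Th1. In Th17, *Foxp1* (5.31 ± 0.35 RPKM) and *Bach2* (5.20 ± 1.29 RPKM) overlapped.

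The share of each member within its family, again per length, placed it beside its paralogues. *Foxo1* held between 46.8% and 60.7% of the signal of *Foxo1*, *Foxo3* and *Foxo4* in all libraries, and the cell types overlapped. *Bach2* held 51.1% and 62.5% of the *Bach1* and *Bach2* signal for Naive, 47.3% and 43.3% for Th17 and 66.7% and 68.4% for Th1, and the 3 cell types did not overlap. *Bcl11b* held 89.8% and 98.8% of the *Bcl11a* and *Bcl11b* signal in Naive and 99.46% or more in the helper cells, since *Bcl11a*, a B cell and progenitor factor, stood at 53.3 and 11.8 CPM in Naive and fell to 1.5 and 1.36 CPM in Th17 and to 0.139 and 0.506 CPM in Th1. The log2 fold change of *Bcl11a* was -4.50 ± 0.74 in Th17 (edgeR adjusted p = 0.00378) and -6.99 ± 0.88 in Th1 (edgeR adjusted p = 0.000818). *Ets1* held between 96.1% and 99.0% of the *Ets1* and *Ets2* signal.

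Of the 11 paralogues tested, 2 fell in Th17 against Naive, 3 fell in Th1 against Naive and 0 were called by edgeR between Th1 and Th17, where 8 had an unadjusted p under 0.05 and DESeq2 called 4. Among all genes, edgeR called 1.43% lower in Th17 and 2.81% lower in Th1 than in Naive. Between Th1 and Th17, 33.8% of all genes had such a p, and DESeq2 called 13.2%. *Ets2* stood at 35.1 and 54.1 CPM in Naive, 10.6 and 8.20 CPM in Th17, and 25.1 and 24.0 CPM in Th1, and its log2 fold change in Th17 was -2.24 ± 0.33 (edgeR adjusted p = 0.00211). *Foxp3*, the regulatory T cell factor, fell in Th1 from 39.2 and 69.9 CPM to 6.95 and 13.2 CPM, with a log2 fold change of -2.45 ± 0.43 (edgeR adjusted p = 0.00443). *Erg* also fell in Th1 but had 0 counts in a Th1 library. *Fli1* and *Foxp4*, the most abundant paralogues, had log2 fold changes of 0.62 ± 0.25 (edgeR adjusted p = 0.114) and 1.34 ± 0.36 (edgeR adjusted p = 0.0323) for Th1 against Th17. The median over the paralogues was -1.31 for Th17 against Naive and 0.44 for Th1 against Th17.

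Among 16 tested cofactors of TCF/LEF factors and genes of the β-catenin pathway, 0 were called by edgeR between Th17 and Naive, where 12 had an unadjusted p under 0.05 and DESeq2 called 4 lower. There 33.3% of all genes had such a p, and DESeq2 called 12.3% in either direction. In Th1, 1 fell against Naive, as did 2.81% of all genes. Against Th17, 1 was higher and 2 were lower in Th1, where 2.7% and 2.83% of all genes were. The Groucho corepressors *Tle1* and *Tle3* went in opposite directions. *Tle1* stood at 20.5 and 15.9 CPM in Naive, 13.9 and 14.0 CPM in Th17, and 2.07 and 2.21 CPM in Th1, with log2 fold changes of -3.09 ± 0.36 against Naive (edgeR adjusted p = 0.000508) and -2.70 ± 0.36 against Th17 (edgeR adjusted p = 0.00129). *Tle3* stood at 232 and 389 CPM in Naive, 241 and 140 CPM in Th17, and 710 and 936 CPM in Th1, with a log2 fold change of 2.11 ± 0.38 over Th17 (edgeR adjusted p = 0.00638). *Tle2* was lower in Th1 too, at no more than 2.71 CPM in any library. The short family member *Aes*, the most abundant of the list, stood between 407 and 945 CPM and was not called.

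**Figure D5:**
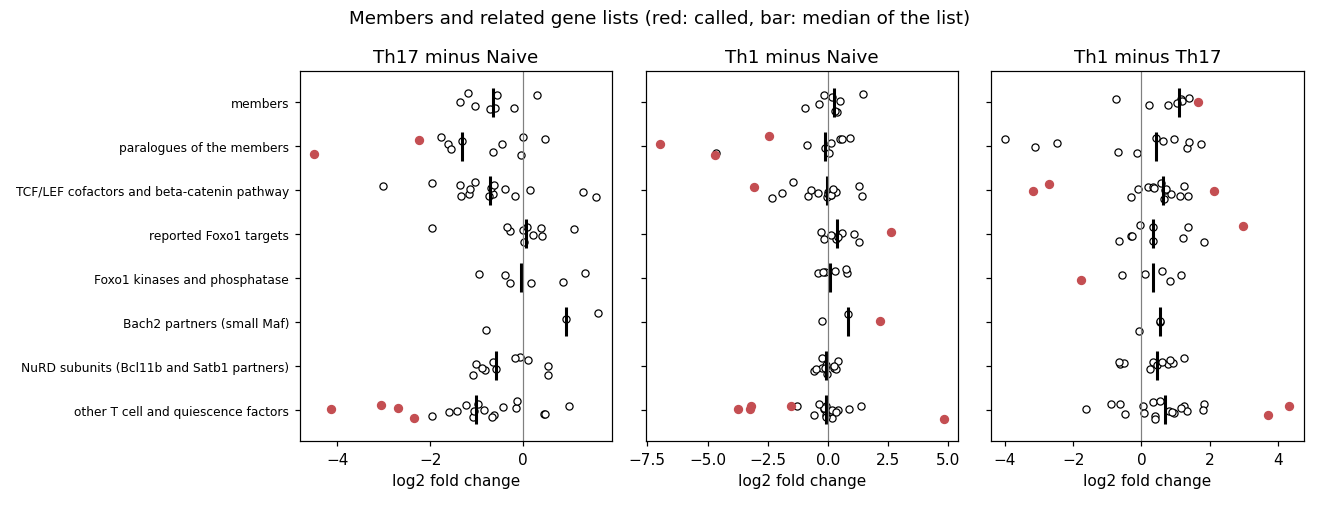
Log2 fold change of each tested gene (horizontal axis) in the set of 8 members and in 7 related lists, for Th17 minus Naive, Th1 minus Naive and Th1 minus Th17, with red points for genes called and a bar at the median of each list. The bar of the members lies at -0.66, 0.23 and 1.10, and the single red member is *Foxp1* in Th1 minus Th17.

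Reported targets of Foxo1 numbered 10, and edgeR called 0 of them between Th17 and Naive, their median log2 fold change being 0.05. There 2 had an unadjusted p under 0.05, and DESeq2 called *Klf2* lower and *Cdkn1b* higher in Th17. The shares of all genes were 33.3% at that p and 12.3% by DESeq2. In Th1, 1 target was called higher than in each of the other cell types, where 4.64% of all genes were against Naive and 2.7% against Th17. That gene was *Bcl2l11*, which encodes the proapoptotic protein BIM, at 49.5 and 65.0 CPM in Naive, 52.2 and 37.2 CPM in Th17, and 366 and 333 CPM in Th1, with a log2 fold change of 2.61 ± 0.30 over Naive (edgeR adjusted p = 0.000472) and 2.96 ± 0.30 over Th17 (edgeR adjusted p = 0.000418). The IL-7 receptor gene *Il7r* differed by 0.22 ± 0.28 between Th17 and Naive (edgeR adjusted p = 0.620).

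Of the 6 genes for kinases and a phosphatase that set the activity of Foxo1, 1 was called by edgeR in any comparison. It was called lower in Th1 than in Th17, as were 2.83% of all genes. *Sgk1*, a kinase that phosphorylates Foxo1, stood at 38.8 and 58.1 CPM in Naive, 120 and 125 CPM in Th17, and 36.7 and 34.8 CPM in Th1. Th1 had less of it than Th17, with a log2 fold change of -1.77 ± 0.28 (edgeR adjusted p = 0.00329), and in Th17 against Naive it was 1.34 ± 0.28 (edgeR adjusted p = 0.0116), just short of a call. *Akt1* and *Akt2* had log2 fold changes in Th1 against Th17 of 0.60 ± 0.27 (edgeR adjusted p = 0.152) and 1.16 ± 0.27 (edgeR adjusted p = 0.0209). Among the 3 small Maf genes, partners of Bach2, *Maff* rose in Th1 from 4.10 and 5.50 CPM in Naive to 14.0 and 28.3 CPM, with a log2 fold change of 2.14 ± 0.41 (edgeR adjusted p = 0.00651). *Mafk*, the most abundant of them, stood between 42.9 and 89.9 CPM and was not called.

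Of 11 subunits of the NuRD complex, a chromatin remodeling partner of Bcl11b and Satb1, edgeR called 0 in any comparison. An unadjusted p under 0.05 was reached by 5 for Th17 against Naive, 0 for Th1 against Naive and 5 for Th1 against Th17, and DESeq2 called *Mbd3* lower in Th17 than in Naive and *Mta1* higher in Th1 than in Th17. In the same order, 33.3%, 29.9% and 33.8% of all genes had such a p, and DESeq2 called 12.3%, 13.3% and 13.2%. The median log2 fold change of the subunits was -0.59 for Th17 against Naive, -0.09 for Th1 against Naive and 0.45 for Th1 against Th17. The remodeler *Chd4* stood at 546 and 657 CPM in Naive, 367 and 225 CPM in Th17, and 520 and 503 CPM in Th1, with a log2 fold change of -1.02 ± 0.32 in Th17 (edgeR adjusted p = 0.0540).

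In a further list of 20 factors of T cell identity and quiescence, 4 fell in Th17 and 4 fell in Th1 against Naive, where 1.43% and 2.81% of all genes did. *Foxj1* was called higher in Th1 than in both other cell types, at no more than 8.59 CPM. *Tox* fell in both helper cells, from 41.6 and 65.1 CPM in Naive to 2.91 and 3.17 CPM in Th17 and 3.08 and 4.99 CPM in Th1, with log2 fold changes of -4.14 ± 0.40 (edgeR adjusted p = 0.00025) and -3.75 ± 0.40 (edgeR adjusted p = 0.00032). *Ikzf2*, encoding Helios, also fell in both, by 2.70 and by 3.18 on the log2 scale (edgeR adjusted p = 0.00184 and 0.000719). *Klf3* fell in Th17 by 3.07 (edgeR adjusted p = 0.0054), and *Myb* and *Id3* fell in Th1 by 3.22 and 1.54 (edgeR adjusted p = 0.00606 and 0.00494). *Gata3*, which drives the Th2 fate and is needed by all T cells, had 57.5 and 82.4 CPM in Naive, 18.4 and 8.54 CPM in Th17, and 117 and 241 CPM in Th1. Its log2 fold change was -2.36 ± 0.45 in Th17 against Naive (edgeR adjusted p = 0.00799) and 3.71 ± 0.47 in Th1 against Th17 (edgeR adjusted p = 0.00109). The order of its mean levels over the cell types was that of *Lef1*, *Foxp1*, *Foxo1* and *Bach2*.

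Over the 6 libraries, of which 2 at a time share a cell type and the replicates 1 share a greater depth, the log2 CPM of *Foxo1* ran closest to that of *Bach2* within the set (Pearson's r = 0.99), followed by *Foxp1* (r = 0.95) and *Bcl11b* (r = 0.95), whereas *Tcf7* and *Satb1* had an r of -0.44. Among all genes tested, the pattern nearest to a member, by Euclidean distance of centred log2 CPM, belonged to *Ncoa2* for *Bcl11b* (distance 0.0975), followed by *Slc17a9* for *Lef1* (0.155) and *D930015E06Rik* for *Foxp1* (0.218). *Chd3* was nearest to *Foxo1* (0.235) and *Prm1* to *Bach2* (0.237), and the nearest to *Tcf7* and *Satb1* were farther off, *Snord42b* (0.283) and *Pgm2* (0.377). The next nearest were *Sall2* for *Bcl11b*, *Adck2* for *Ets1* (0.136), *Znrf2* for *Lef1*, *Zbtb38* for *Foxp1*, *Taf4a* for *Foxo1*, *Sh3bp1* for *Bach2*, *Ap1m2* for *Tcf7* and the Th1 factor *Stat4* for *Satb1*. *Snord42b* was at or below 0.644 CPM in every library, so its place rests on few counts.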

How the data were processed

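RNA-Seq was performed on polyadenylated RNA from Naive, Th17 and Th1 cells, with 2 libraries for each, by Smart-seq2 reverse transcription followed by TruSeq library preparation. The deposited values are raw counts per gene for each library, which the authors obtained by aligning reads to mm10 with Hisat2 (v2.2.1) and counting them with HTSeq (v0.13.5). Per the methods, duplicates were removed and HTSeq was run by default, whereas the supplementary code holds no step for duplicates and counts as reverse-stranded, so whether antisense reads were kept apart is not settled. The submitters' processing notes also name StringTie (2.1.7) and DESeq2 (1.34.0).

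The analysis used edgeR 4.0.16 and limma 3.58.1 under R 4.3.3. Of 24223 genes, 13607 passed filterByExpr by cell type, and TMM factors ranged from 0.862 to 1.09. Cell types were compared by the quasi-likelihood F-test in 1 model of the 6 libraries whose only term was cell type, with 3 residual degrees of freedom. Standard errors were taken as the absolute log2 fold change divided by the square root of F, and a call needed a Benjamini-Hochberg adjusted p under 0.01 and a log2 fold change beyond 1 in either direction. CPM are TMM-scaled, with a prior count of 2 on the log2 scale. Gene positions, overlaps and exon lengths (13056 of 13607 tested genes) came from GENCODE vM21 on GRCm38, and promoter sequences from RefSeq on GRCm38.p6. Genes of the related lists were named when called with more than 3 counts in every library, at most 4 for each comparison, and otherwise as the 2 most abundant of the list. For each member the 2 nearest genes were named. *Klf2*, *Cdkn1b*, *Mbd3*, *Mta1*, *Tle2*, *Erg* and *Foxj1* fall outside this rule and were named, after their values were seen, because they made up small counts of calls. Some genes that meet the rule are left out of the text. The members, lists and motifs were chosen with earlier results of these data known, so no test was run over the set.

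The study names the replicates as biological, but cells were pooled over animals, and p-values measure the spread between these libraries. The smallest two-sided p that an exact permutation of 2 against 2 libraries allows is 0.333. Sequenced reads are not independent molecules, so depth describes counting error only. The alternatives were DESeq2 1.42.0, RLE factors, library size alone, no filter, a minimum of 10 counts per library, a block for the replicate number (edgeR and DESeq2), a fit of only the 4 libraries of a comparison, libraries thinned to the smallest, an adjusted p under 0.05, no fold change threshold, a test against a fold change of 2 (glmTreat), leaving out each library, and, added after seeing the data, scaling to the T cell markers.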

Additional observations from a re-analysis of the deposited data

How the results depend on the processing

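Of 408 values of a member under an alternative, 376 kept their direction and their side of the threshold, 13 gained a call, 8 lost one (all *Foxp1* in Th1 against Th17) and 11 changed sign. The counts of calls moved with the setting, and the cause was not tested. For Th17 against Naive the count of members called was 0, and 1 with DESeq2, with DESeq2 and a replicate block and at an adjusted p under 0.05 (each *Foxp1*), and 2 without a filter on low counts (*Foxp1* and *Bcl11b*). It was 0 without any single library. For Th1 against Naive the count was 0, and 1 (*Satb1*) with DESeq2, with DESeq2 and the block, without a filter and at an adjusted p under 0.05, and 0 to 1 without a single library. For Th1 against Th17 the count was 1. It was 2 with DESeq2 and with DESeq2 and the block, 4 without a filter (*Satb1*, *Bach2*, *Foxo1* and *Foxp1*) and 3 at an adjusted p under 0.05 (*Bach2*, *Foxo1* and *Foxp1*). It was 0 with library size alone, with at least 10 counts in every library, against a fold change of 2 and scaled to the T cell markers, and 0 to 1 without a single library, where leaving out either Th17 or either Th1 library gave 0. Under these settings *Foxp1* in Th1 against Th17 had a log2 fold change of 1.40 to 1.84. The edgeR fit with a replicate block called 0, 0 and 1 members in the 3 comparisons, as without it. The share of all genes called rose with these settings too. In the order Th17 against Naive, Th1 against Naive and Th1 against Th17 it was 5.43%, 7.45% and 5.53% as reported, 12.3%, 13.3% and 13.2% with DESeq2, 12.1%, 12.7% and 12.5% without a filter, and 15.2%, 15.9% and 15.5% at an adjusted p under 0.05.

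Deviations of replicate 1 from the group means correlated by -0.231 between Naive and Th17, 0.168 between Naive and Th1, and 0.0766 between Th17 and Th1. Such correlations cannot show whether libraries of the same replicate number were made together, and the labels do not say. Over all genes the edgeR block moved the calls for Th17 against Naive from 545 higher and 194 lower to 706 and 329, for Th1 against Naive from 631 and 383 to 839 and 563, and for Th1 against Th17 from 367 and 385 to 492 and 549.

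Signs that turned belonged to differences smaller than their error. Without a single library the log2 fold change ranged from -0.58 to 0.43 for *Bcl11b*, from -0.094 to 0.99 for *Foxo1* and from -0.38 to 0.61 for *Lef1* in Th1 against Naive, and from -0.10 to 0.81 for *Satb1* and from -0.51 to 0.21 for *Tcf7* in Th17 against Naive. With library size alone it was -0.10 for *Lef1* in Th1 against Naive and -0.015 for *Ets1* in Th1 against Th17, and scaled to the T cell markers -0.068 and -0.040. Library size alone moved the median of all genes to -0.26 in Th1 against Naive and -0.24 in Th1 against Th17.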
